A study of Mus musculus and Homo sapiens with 8 samples.

Results

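The genes described here are 10 genes of insulin and insulin-like growth factor (IGF) signalling with 2 enzymes of glucose output among them, measured in HepG2 cells, an established human liver carcinoma line. They were chosen by a list of Ensembl identifiers, and all 10 were present among the 60675 rows of the deposited count table. By role they were the ligand IGF2 (ENSG00000167244), the binding proteins IGFBP1 (ENSG00000146678), IGFBP2 (ENSG00000115457) and IGFBP4 (ENSG00000141753), and the receptors IGF1R (ENSG00000140443) and INSR (ENSG00000171105). The others were the adaptors IRS1 (ENSG00000169047) and IRS2 (ENSG00000185950) and the gluconeogenic enzymes PCK1 (ENSG00000124253) and G6PC (ENSG00000131482). The symbols are those that came with this list, since the deposited tables hold identifiers alone.

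Total RNA was sequenced from 2 HepG2 samples kept for 24 h with arsenite and from 2 kept for 24 h with water. The labels give 5 nM for arsenite and repeat that figure on the water samples, and all HepG2 cells were at 25 population doublings. The series also holds 4 samples of a mouse fibroblast line, which were not used here. Nothing in the labels states that the 2 samples of a group were grown separately, and the spread behind the p-values may therefore be technical alone.

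Insulin and the IGFs bind related receptor tyrosine kinases, INSR and IGF1R. The receptors phosphorylate the adaptors IRS1 and IRS2, which recruit PI3-kinase and so activate AKT. In hepatocytes AKT excludes FOXO1 from the nucleus, and transcription of IGFBP1, PCK1, G6PC and IRS2 falls. IGFBPs hold IGFs in solution and limit their access to the receptor. Hepatocytes are a main source of circulating IGFBP1, and IGF2 is the IGF of the fetal liver and of many liver tumours.

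The HepG2 libraries held 27192636 and 27361110 counts with arsenite and 26965049 and 27481613 counts with water. Across all genes, 30.6% of the 14389 genes tested passed an adjusted p of 0.05 (edgeR's quasi-likelihood test, Benjamini-Hochberg adjustment), 11.8% higher and 18.8% lower with arsenite. In 28 rows the water libraries held at most 3 counts together while each arsenite library held at least 10. These rows summed to 1446 and 1194 counts with arsenite and to 10 and 7 counts with water. None of the 10 genes was among them, and the part of these rows in the values below was not tested. The reverse rule, at most 3 counts over arsenite and at least 10 in each water library, held for 1 row. That row was none of the 10 genes. Hepatocyte markers were not checked, because no symbols were at hand for the other identifiers.

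Of the 10 genes, 8 had enough counts to be tested, and none of the 8 passed, against 30.6% of all genes tested. At an unadjusted p under 0.05 (edgeR), 1 of the 8 passed, IGF2, against 40.9% of all genes tested. When libraries were scaled to library size alone, none of the 8 did, against 40.3% of all genes tested. With 1 library left out, a lone sample had to be taken to vary as its counterparts do, and such a fit can call less. None of the 8 then passed, against 5.98% of all genes without arsenite 1, 20.3% without arsenite 2, 9.46% without water 1 and 31.3% without water 2. PCK1 and IRS2 fell below the filter on low counts. The 8 log2 fold changes, arsenite over water, had a median of 0.18 against -0.020 for all genes tested. Their median size without regard to sign was 0.21 against 0.35. These are descriptions, since the genes were chosen with earlier results of these data known. In such bulk samples a lower level per cell and fewer cells that make a transcript cannot be told apart.

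**Figure D1:**
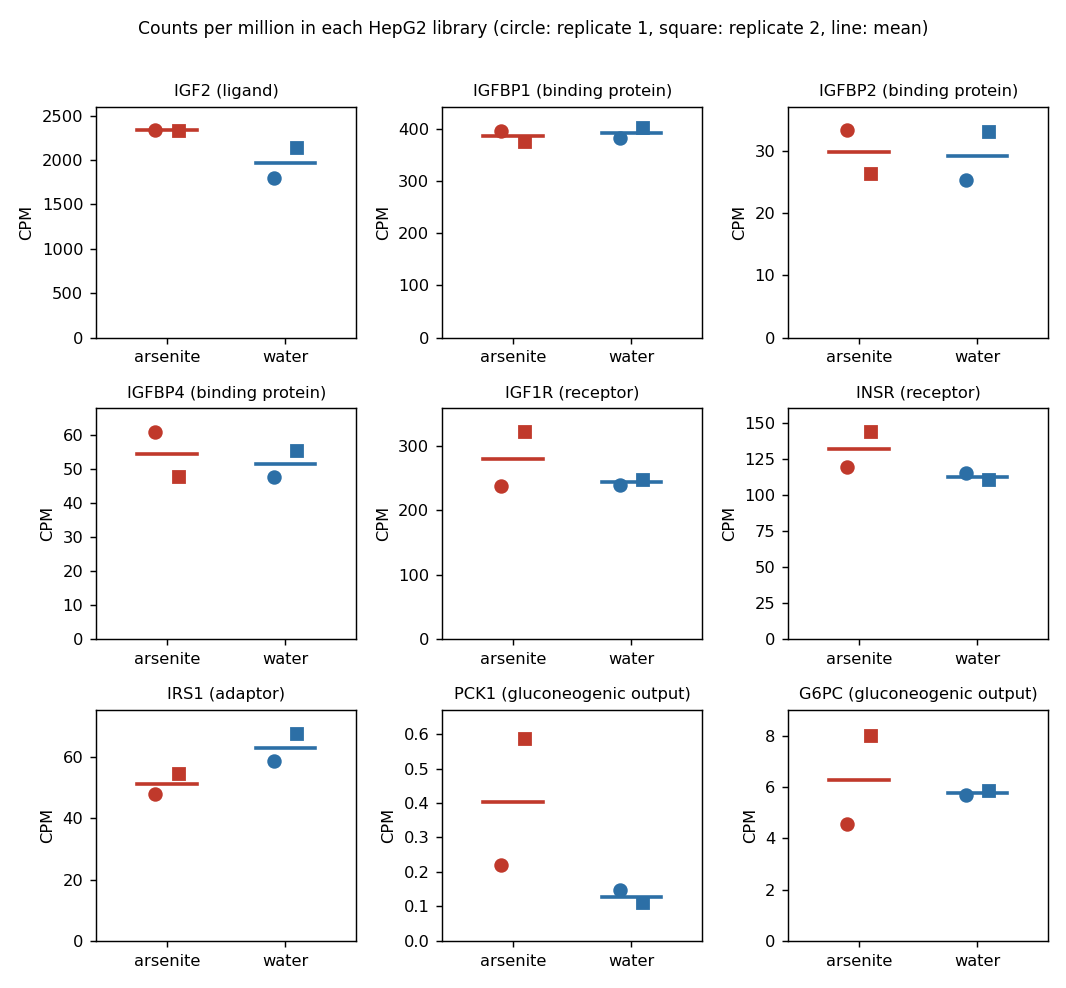
Library-scaled counts (CPM) of 9 genes in each HepG2 library, with arsenite at the left and water at the right of each panel and each vertical axis starting at 0; points are libraries and lines are group means. The arsenite and water libraries do not overlap for IGF2, INSR, IRS1 and PCK1, where PCK1 was not among the genes tested. Of all genes tested, 66.7% do not overlap. IRS2, at 0 counts in all 4 libraries, is not drawn.

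The levels spanned a wide range. On the RPKM scale, computed here from the counts, the gene length and the total of the same library (RPKM by own total), IGF2 was highest, at 373 ± 0.813 with arsenite and 315 ± 38.3 with water (SD, n = 2 each). IGFBP1 followed at 234 ± 9.0 RPKM with arsenite and 237 ± 7.94 RPKM with water. In all 4 libraries both lay far above the other 8 genes on this scale. IGFBP4 had 24.6 ± 4.29 RPKM with arsenite and 23.4 ± 2.50 RPKM with water. IGF1R had 20.7 ± 4.38 RPKM with arsenite and 18.1 ± 0.413 RPKM with water. IGFBP4 and IGF1R were neighbours whose order was not fixed, since IGF1R was the higher in arsenite 2 and IGFBP4 in the other 3 libraries. INSR came next, with 12.6 ± 1.65 RPKM with arsenite and 10.8 ± 0.366 RPKM with water. IGFBP2 had 6.25 ± 1.05 RPKM with arsenite and 6.13 ± 1.14 RPKM with water. IRS1 had 5.15 ± 0.454 RPKM with arsenite and 6.33 ± 0.625 RPKM with water. The ranges of IGFBP2 and IRS1 overlapped, and their order differed between libraries. G6PC lay lower, at 1.91 ± 0.739 RPKM with arsenite and 1.75 ± 0.0396 RPKM with water.

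IGF2, the growth factor ligand, had the smallest p of the 8 genes tested. It had 63587 and 63784 counts with arsenite, against 48569 and 58804 counts with water. Scaled to library size these were 2338 and 2331 CPM with arsenite and 1801 and 2140 CPM with water. Both arsenite libraries lay above both water libraries, and the arsenite pair was nearly equal while the water pair differed by 0.25 on the log2 scale. That gap was as large as the difference between group means, 0.25 on the same scale. The fitted fold change was 1.26 (95% interval 1.03 to 1.53, not adjusted for the number of genes; log2 fold change 0.33, SE 0.15). The adjusted p was 0.071 (edgeR, Benjamini-Hochberg; unadjusted 0.024), so IGF2 did not pass.

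The IGF2 call depended on the method. DESeq2 gave an adjusted p of 0.043 with a log2 fold change of 0.36. It called 13.7% of 27146 genes, low-count genes included. That total holds genes to which DESeq2 gave no adjusted p, such as PCK1, and which could not be called. limma-voom gave an adjusted p of 0.048 (log2 0.33) and called 31.3% of the 14389 genes left by the filter. edgeR without the filter on low counts gave an adjusted p of 0.049 (log2 0.34) and called 13.9% of 27146 genes. The shares over 27146 and 14389 genes are thus not alike. Without water 1, the library with the lowest IGF2 level, the log2 fold change was 0.23 and the adjusted p 0.522 (edgeR). With each library left out in turn, it ran from 0.23 to 0.44. In human annotation IGF2 overlaps a readthrough gene with INS and an antisense gene, and the kit, as named in the labels, does not mark strand. Reads of these genes cannot be told apart from reads of IGF2 in the overlap.

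The IGF binding proteins showed no difference beyond the spread between replicates. IGFBP1, which is made by liver cells and is repressed by insulin, had 397 and 376 CPM with arsenite and 383 and 401 CPM with water. The values interleaved, and the 2 libraries of a group differed by up to 0.08 on the log2 scale. Its fitted fold was 1.05 (95% interval 0.845 to 1.29; adjusted p = 0.791, edgeR), with a log2 fold change of 0.06 that turned to -0.020 when libraries were scaled to library size alone. The interval spans differences in both directions, and so does not show that IGFBP1 was unaffected.

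IGFBP2, an IGF carrier that is abundant in fetal serum, had 33.4 and 26.3 CPM with arsenite and 25.4 and 33.0 CPM with water. Each group held 1 high and 1 low library, and the groups covered almost the same range. Its fold was 1.08 (95% interval 0.841 to 1.397; adjusted p = 0.677, edgeR), and the log2 value changed sign without arsenite 1 (-0.062) and without water 1 (-0.046). IGFBP4, which inhibits IGF action until the protease PAPPA cleaves it, had 60.9 and 47.5 CPM with arsenite and 47.5 and 55.3 CPM with water. Arsenite 1 was the highest of the 4 libraries and arsenite 2 was level with water 1. The fold was 1.12 (95% interval 0.878 to 1.42; adjusted p = 0.523, edgeR), and the log2 fold change, 0.16, was -0.024 without arsenite 1.

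Per length, IGFBP1 made up most of the 3 binding proteins in every library. Its share of their summed RPKM was 87.4% and 89.4% with arsenite and 89.6% and 88.3% with water. IGFBP4 held 10.1% and 8.48% with arsenite and 8.36% and 9.15% with water, and IGFBP2 held 2.54% and 2.16% with arsenite and 2.06% and 2.52% with water. All 3 shares overlapped between the groups. The ratio of IGF2 to the sum of these binding proteins was 1.36 and 1.46 with arsenite and 1.11 and 1.24 with water. This ratio did not overlap between the groups. IGF2 and IGFBP1 have lengths of 6259 and 1653 bp, and the ratio was not corrected for length trends of the libraries. How often ratios of other genes do not overlap was not computed. With 2 libraries against 2, an exact permutation test cannot give a 2-sided p below 0.333, so no single ratio can pass by that test.

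**Figure D2:**
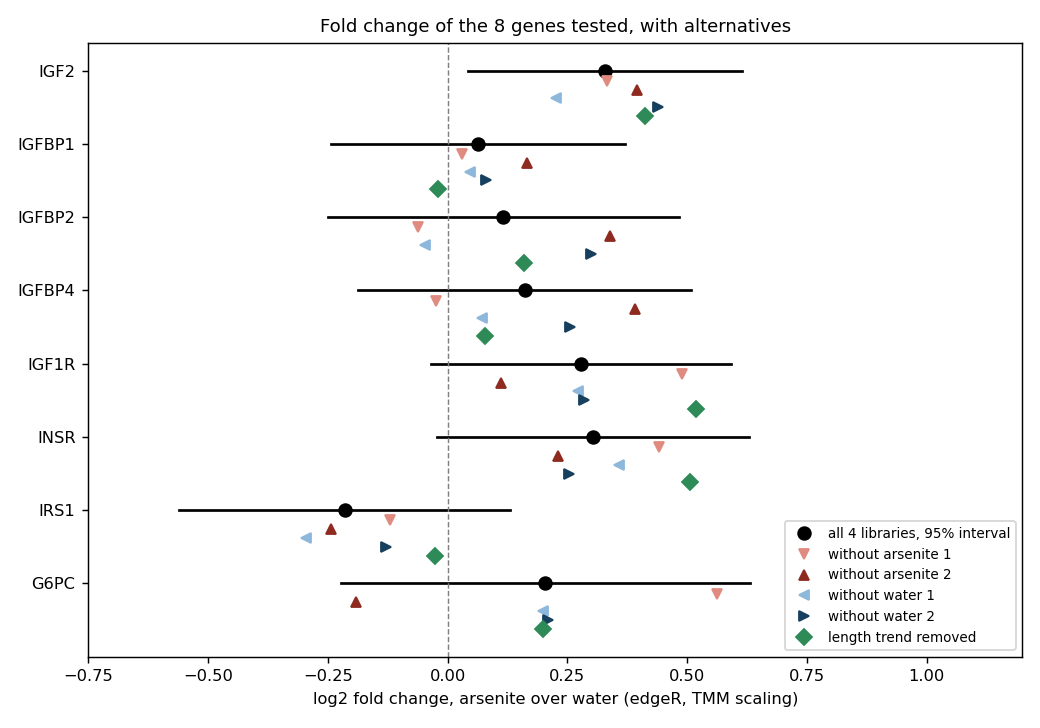
Log2 fold change, arsenite over water, of the 8 genes tested; black points and lines are the edgeR values and unadjusted 95% intervals with all 4 libraries, triangles leave out 1 library each, and green diamonds have the length trend of each library removed. The sign changes for IGFBP2, IGFBP4 and G6PC when 1 library is left out, and IGF1R, INSR and IGF2 lie at 0.52, 0.51 and 0.41 with the length trend removed.

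Neither receptor passed in edgeR with the length trends left in. IGF1R, the receptor through which IGFs drive growth, had 238 and 322 CPM with arsenite and 240 and 248 CPM with water. By library totals, arsenite 2 stood above the other 3 libraries and arsenite 1 lay just below both water libraries, so the groups overlapped on that scale. The edgeR fit also applied scaling factors (TMM) of 0.964 and 0.980 with arsenite and 1.02 and 1.04 with water. These factors raise arsenite values relative to water values, and overlap with them was not computed. The fitted fold of IGF1R was 1.21 (95% interval 0.977 to 1.51, log2 0.28, SE 0.16). Its adjusted p was 0.175 (edgeR).

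INSR, the insulin receptor, had 119 and 144 CPM with arsenite and 116 and 110 CPM with water. Both arsenite libraries were above both water libraries, arsenite 1 by little and arsenite 2 clearly. Its fold was 1.23 (95% interval 0.985 to 1.55; log2 0.30, SE 0.17; adjusted p = 0.154, edgeR). The table counts genes, so the receptor isoforms A and B, made by splicing, were not resolved. Per length, IGF1R exceeded INSR by 1.54 and 1.73 times with arsenite and by 1.61 and 1.74 times with water, and this ratio overlapped between groups.

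Of the adaptors, IRS1 was detected and IRS2 was not. IRS1, which links both receptors to PI3-kinase, had 48.0 and 54.4 CPM with arsenite and 58.6 and 67.4 CPM with water. Both arsenite libraries lay below both water libraries, and within each group replicate 2 was the higher. Its fold was 0.862 (95% interval 0.678 to 1.09; log2 -0.21, SE 0.18; adjusted p = 0.369, edgeR). IRS1 was the 1 gene of the 8 tested with a negative log2 fold change.

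The ratio of IRS1 to INSR, per length, was 0.422 and 0.397 with arsenite and 0.533 and 0.643 with water. The ratio of IRS1 to IGF1R was 0.274 and 0.230 with arsenite and 0.331 and 0.369 with water. Both ratios were lower in each arsenite library than in either water library. IRS1, INSR and IGF1R have lengths of 9953, 10451 and 13509 bp, and the ratios were not corrected for length trends of the libraries. These ratios were picked after the values were seen.

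IRS2, an adaptor that hepatocytes use beside IRS1, had 0 counts in all 4 libraries. By the 1-sided limit of 3 counts, a count of 0 allows up to 0.110 and 0.110 CPM with arsenite and 0.111 and 0.109 CPM with water (counting error alone). Absent transcripts and reads that were not assigned to this gene cannot be told apart in a count table. No fold is given.

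The gluconeogenic enzymes were low. G6PC, the catalytic subunit of glucose-6-phosphatase, which releases free glucose, had 124 and 219 counts with arsenite and 153 and 161 counts with water. These were 4.56 and 8.00 CPM with arsenite and 5.67 and 5.86 CPM with water. The arsenite libraries held both the lowest and the highest value, 0.81 apart on the log2 scale, and enclosed the water pair, which was 0.05 apart. The fold was 1.15 (95% interval 0.857 to 1.55; log2 0.20, SE 0.22; adjusted p = 0.505, edgeR). Its direction rested on 1 library, with a log2 value of 0.56 without arsenite 1 and -0.19 without arsenite 2.

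PCK1, the cytosolic PEP carboxykinase that commits oxaloacetate to glucose synthesis, was close to the limit of detection. It had 6 and 16 counts with arsenite, against 4 and 3 counts with water. Both arsenite libraries were above both water libraries. The exact 95% Poisson interval (2-sided) of the 6 counts, 2.20 to 13.1, spanned both water counts, and that of the 16 counts, 9.15 to 25.98, lay above both. Summed per group there were 22 counts with arsenite and 7 with water, a ratio of 3.14 (exact 95% counting interval 1.29 to 8.69, which leaves out the spread between samples). Of these 22 counts, 16 came from arsenite 2. Without the filter on low counts edgeR gave an adjusted p of 0.040. DESeq2 gave an unadjusted p of 0.122 and no adjusted p.

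Among the 8 genes tested, 3 (IGF2, INSR and IRS1) had groups that did not overlap in CPM, against 66.7% of all genes tested. Of the 3, 2 were higher and 1 lower with arsenite, where 25.5% of all genes tested lay wholly higher and 41.2% wholly lower. These counts and shares use library totals and depend on that scaling. With library size alone edgeR called 1132 genes higher and 3318 lower (adjusted p under 0.05), against 1693 and 2704 with TMM scaling. Overlap under TMM scaling was not computed.

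The difference between the arsenite libraries varied with gene length, and IGF1R, INSR and IRS1 are long genes. Over 11299 genes (those whose log2 CPM averaged over 1), the log2 ratio of arsenite 1 to arsenite 2 had a Spearman's rho of -0.487 with gene length, a description across genes of the same 2 libraries. For water 1 to water 2 rho was 0.185. In the tenth of genes with the greatest length the median log2 ratio was -0.26 between the arsenite libraries and 0.15 between the water libraries. In the tenth with the smallest length it was 0.20 and -0.03.

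IGF1R had a log2 ratio of -0.41 between arsenite 1 and arsenite 2, where the trend at its length gave -0.26. INSR had -0.24 against a trend of -0.19, and IRS1 had -0.16 against -0.18. IGFBP1, at 1653 bp, had 0.10 against 0.18, and IGFBP4, at 2200 bp, had 0.38 against 0.15. For these 5 genes the difference between the arsenite libraries had the sign of the trend, with IGFBP4, IGF1R and INSR farther from 0 than the trend. G6PC, at 3295 bp, had -0.78 against a trend of 0.08, and IGFBP2, at 4767 bp, had 0.37 against 0.01. IGF2, at 6259 bp, had 0.03 against -0.06, both small. Between the water libraries IGF1R had -0.011 and IRS1 -0.17, below the positive medians of long genes there, and INSR had 0.10. The spread of single genes around these trends was not examined.

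**Figure D3:**
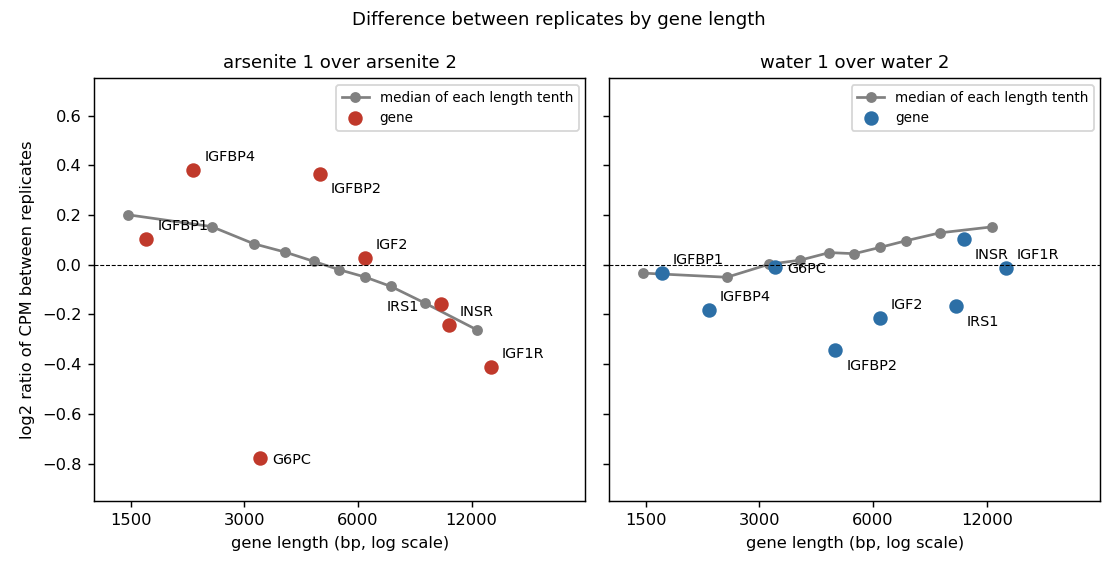
Log2 ratio of CPM between the 2 replicates of each group (TMM-scaled) against gene length on a log axis, arsenite at the left and water at the right; grey points are medians of 10 groups of genes of equal number ordered by length, coloured points are the 8 genes tested. The grey line falls to -0.26 for the longest genes between the arsenite libraries. There IGF1R, INSR and IRS1 lie at -0.41, -0.24 and -0.16, and G6PC lies at -0.78.

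When the length trend of each library was removed, a step chosen after seeing the data that also removes any trend the libraries of a group share, 3 of the 8 genes passed, against 35.2% of all genes tested. IGF1R then had a log2 fold change of 0.52 (adjusted p = 0.0022), INSR 0.51 (adjusted p = 0.0035) and IGF2 0.41 (adjusted p = 0.014), each by edgeR with Benjamini-Hochberg adjustment. IRS1 moved to -0.026 and IGFBP1 to -0.019, and neither passed. With the trends left in, edgeR gave 0.28 for IGF1R, 0.30 for INSR and -0.21 for IRS1. The trends given above are between replicates, whereas a fold change moves with a trend between arsenite and water. The trend between the groups was not examined, and its source was not tested. Without arsenite 1, and with no length correction, IGF1R had 0.49 (adjusted p = 0.132, edgeR) and INSR 0.44 (adjusted p = 0.239). Without arsenite 2 they had 0.11 and 0.23. Across these settings the log2 fold change of IGF1R ran from 0.11 to 0.52 and that of INSR from 0.23 to 0.51.

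The RPKM table deposited by the authors gave other ratios for the same genes. Its values were divided by 14 different totals that alternate down the rows and differ by up to 1.81-fold, so most values were not scaled to their own library. With these divisors, all 43288 HepG2 values above 1 were rebuilt from the counts within 0.1% or 0.001. INSR stood at 16.7 and 16.7 deposited RPKM with arsenite and at 9.10 and 9.45 with water. Divided by own totals it had 11.4 and 13.8 RPKM with arsenite and 11.1 and 10.5 RPKM with water. The ratio of group means was 1.798 in the deposited RPKM and 1.17 by own totals.

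The same shift was seen for IGF1R, at 1.75 in the deposited RPKM against 1.15 by own totals, and for IGFBP2, at 1.59 against 1.02. IRS1 changed direction, from 0.813 by own totals to 1.15 in the deposited RPKM. IGFBP1 was at 0.986 by own totals and 0.823 in the deposited RPKM. In limma on log2(deposited RPKM + 1), none of the 8 passed, against 7.24% of all genes tested. Here IGF1R, INSR and IGFBP2 had an unadjusted p under 0.05, as did 25.7% of all genes tested, with adjusted p of 0.072, 0.061 and 0.180. The deposited INSR values were 1.46 and 1.21 times the own-total values in the arsenite libraries. In the water libraries they were 0.823 and 0.897 times the own-total values. IGF1R and IGFBP2 had the same factors as INSR, to the digits given. The shifts and small p-values of IGF1R, INSR and IGFBP2 thus share the same divisors and are not separate gene results. In limma on log2(own-total RPKM + 1) their unadjusted p were 0.294, 0.198 and 0.869.

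**Figure D4:**
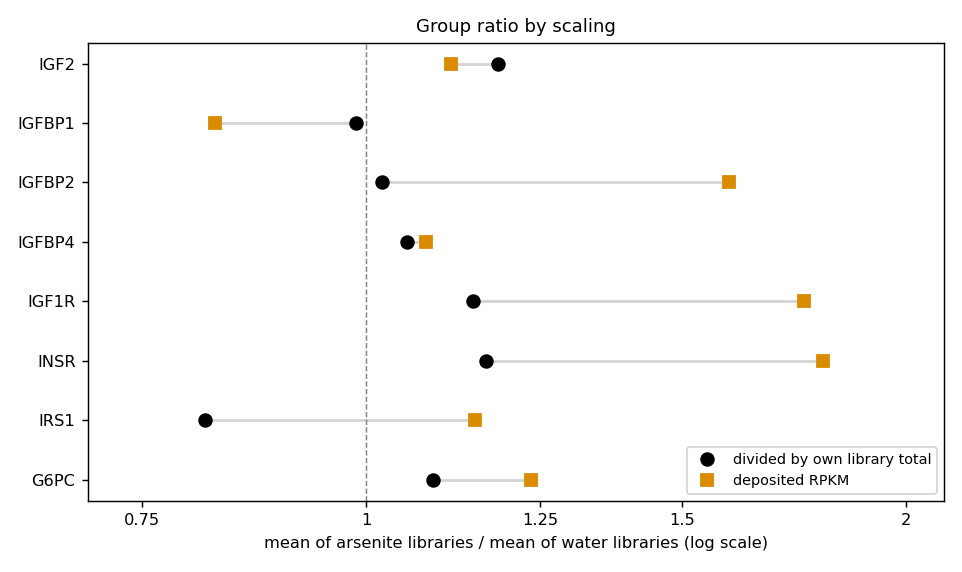
Ratio of the mean of the arsenite libraries to the mean of the water libraries for the 8 genes tested, on a log axis; black circles are counts divided by the total of their own library and orange squares the deposited RPKM. IGFBP2, IGF1R and INSR lie between 1.02 and 1.17 by own totals and between 1.59 and 1.798 in the deposited RPKM, and IRS1 lies on opposite sides of 1.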

How the data were processed

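The authors deposited raw read counts per Ensembl gene and a table of RPKM values, per the file headers. TruSeq RNA libraries were sequenced, per the labels' protocols. The tools listed in the submitters' processing notes, with no roles given, are STAR 2.4.1d, featureCounts 1.4.6-p4 and bcl2fastq 1.8.4, and the build is GRCh38. The NIH3T3 columns held mouse values under human identifiers (12946 rows repeat earlier ones) and were not used. The members and lists were chosen with earlier results of these data known, and all 10 members are named. The 9 gene lists, cell type markers included, were not run, since 0 human identifiers matched the name tables.

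Arsenite was compared with water on the deposited counts of the 4 HepG2 libraries in edgeR 4.0.16 (R 4.3.3): default filter on low counts, TMM scaling, quasi-likelihood test, 2-sided, Benjamini-Hochberg over all genes tested. The spread of a gene was that of the trend with abundance (common biological coefficient of variation 0.118), so SEs and intervals give its own replicates no weight. CPM and ratios use library totals, and gene lengths were derived from the deposited RPKM. These lengths need not be those of the transcripts made in HepG2, and levels per length of different genes depend on them. Replicates were numbered in accession order. They differed by more than sampling noise (chi-square over degrees of freedom 29.6 for arsenite, 20.5 for water). The fit was tested on simulated data. Alternatives used DESeq2 1.42.0, limma 3.58.1 (voom, or log2(RPKM + 1) and log2(RPKM + 0.1), keeping rows with a mean RPKM from 0.5 or keeping all), other scaling and filters, and each library left out. Length trends were loess curves (span 0.5) of log2 CPM (prior count 2), for genes with a mean above 1. Tables were made in Python 3.11.15 with pandas 2.3.3.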

Additional observations from a re-analysis of the deposited data

How the results depend on the processing

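No paired analysis was possible because the labels carry no replicate numbers. Own-total RPKM and the removed length trend were chosen after seeing the data. In edgeR with its default settings 0 of 8 genes tested passed, against 30.6% of all genes tested. IGF2 alone passed in DESeq2 (1 of 9, against 13.7% of all genes) and in limma-voom (1 of 8, against 31.3%). The DESeq2 totals include genes without an adjusted p, PCK1 among them, which could not be called. Without the filter 2 of 9 passed (IGF2 and PCK1), against 13.9% of all genes. With the length trend removed 3 of 8 passed, against 35.2% of all genes. Leaving out 1 library gave 0 of 8 in each case, in fits with fewer samples. Log2 fold changes turned round for IGFBP1 with library size alone (-0.020), deposited RPKM (-0.28 with either pseudocount and without filter), own-total RPKM (-0.020) and the length trend removed (-0.019). With 1 library left out, IGFBP2 ran from -0.062 (without arsenite 1) to 0.34 and was -0.046 without water 1. IGFBP4 ran from -0.024 (without arsenite 1) to 0.39, and G6PC from -0.19 (without arsenite 2) to 0.56. IRS1 turned to 0.12 in deposited RPKM with a pseudocount of 1, with and without filter, and 0.13 with 0.1. The deposited values carry the changing divisors.

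Over all genes, 4397 were called (1693 higher, 2704 lower). Leaving out 1 library gave 860 to 4504 (215 to 1666 higher, 645 to 2838 lower): 860 without arsenite 1, 1361 without water 1 and 2923 without arsenite 2. Deposited RPKM gave 912 (197 higher, 715 lower) with a pseudocount of 1, 869 (185 higher, 684 lower) with 0.1, and 0 (0 higher, 0 lower; 3833 at an unadjusted p under 0.05, limma) without filter. Own-total RPKM called 859 higher. The cause was not tested. Low counts limit PCK1, at 3 to 16 counts a library. IRS2 had 0 counts in each library, for a reason that was not tested.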
